A study of Homo sapiens with 12 samples.

Results

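The genes described here encode the THO complex and the proteins that work with it in messenger RNA export: the subunits THOC1, THOC2, THOC3, THOC5, THOC6 and THOC7, the helicase DDX39B, the export adaptor ALYREF, and 2 linked RNA-processing factors, SRRT and ACIN1. They were taken by gene name from 4 tables that the authors deposited, and all 10 were found. Together they had 156 of 296568 windows, between 37 and 41 in each table. The genes were chosen by their function together with the deposited log2 fold changes and FDR of these same tables, so the differences given are a description and no test is made of the group.

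The tables come from NOMO-1, an established human acute myeloid leukaemia line. Cells carried guide sgMETTL16-1 or sgMETTL16-2 for knockout of the RNA methyltransferase METTL16, or the negative control guide sgNS, and the labels give the same growth in puromycin for every sample. N6-methyladenosine (m6A) was mapped on poly(A) RNA by sequencing an input library and a library immunoprecipitated (IP) with an m6A antibody, for 3 guides and 2 replicate numbers, 12 libraries in all. Each table sets 1 guide and 1 replicate number against sgNS. The labels name no clone, do not say how the guides were delivered, and do not say whether replicate numbers mark separate cultures.

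THO is a conserved complex that joins the helicase DDX39B (also called UAP56) and the adaptor ALYREF to form TREX, which is loaded on RNA during transcription and splicing and hands mature messages to the export receptor NXF1. SRRT, better known as ARS2, links the nuclear cap-binding complex to RNA processing and export. ACIN1 is the scaffold of the ASAP complex, which sits beside the exon junction complex on spliced RNA. Export and methylation meet in known biology, since TREX has been found in contact with the m6A writer complex. In this assay the question is a different one: how much m6A the messages of these genes carry with and without METTL16.

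A window is a stretch of transcript, in 1 or several blocks, for which a table lists how far IP exceeds input (the fold enrichment) and how that enrichment differs between knockout and sgNS (the log2 fold change). Windows count as called where the deposited FDR for the knockout comparison lies under 0.05. They count as enriched where the separate deposited FDR for IP against input does. Negative log2 fold changes are taken as less m6A with the METTL16 guide. The tables do not spell out that orientation, and every direction given here would flip under the other one. No value per library is used, the read depth is unknown, and a table gives no error for its fold change. The repeat of a guide in its second table is therefore the only measure of spread. Across windows enriched in both tables of a guide, the 2 log2 fold changes differed by a median of 0.26 for sgMETTL16-1 (3192 windows, 95th percentile 0.79) and 0.22 for sgMETTL16-2 (4228 windows, 95th percentile 0.76). For the windows of the 10 genes among these, the median difference was 0.48 for sgMETTL16-1 (5 windows) and 0.11 for sgMETTL16-2 (7 windows). METTL16 had 5 to 7 windows in each table and 0 of them were called. Being a measure of methylation on its RNA, they are no check of the knockout. Of 10 genes typical of monocytes and myeloid cells, all had windows in every table.

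The authors' deposited tables called windows of 6 of the 10 genes. THOC2 and THOC7 had lower windows, ACIN1, SRRT, THOC5 and DDX39B had higher ones, and THOC1, THOC3, THOC6 and ALYREF had no call in any table. There were 14 calls, 6 lower and 8 higher, with absolute log2 fold changes of 0.23 to 0.82. By table the calls were 2 lower and 1 higher of 37 windows (sgMETTL16-1 replicate 1) and 0 lower and 3 higher of 39 (sgMETTL16-1 replicate 2). For sgMETTL16-2 they were 3 lower and 2 higher of 41 in replicate 1, and 1 lower and 2 higher of 39 in replicate 2. Over all windows of the same tables, in that order, 0.281%, 0.167%, 0.965% and 0.149% were called lower and 0.0743%, 0.583%, 0.875% and 0.586% higher. In either direction the shares over all windows were 0.355%, 0.749%, 1.84% and 0.734%, and over enriched windows 3.59%, 5.41%, 11.8% and 5.22%. Of all genes listed in each table, 1.74%, 3.22%, 7.72% and 3.14% had a called window there. The 6 of 10 genes above are counted over the 4 tables together, so the 2 figures are not on 1 scale. Nothing is read from the gap, because the genes were picked with these values known. The called window with the weakest support had an FDR of 0.0257 (THOC5), and the uncalled one closest to the threshold had 0.0661 (SRRT).

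**Figure D1:**
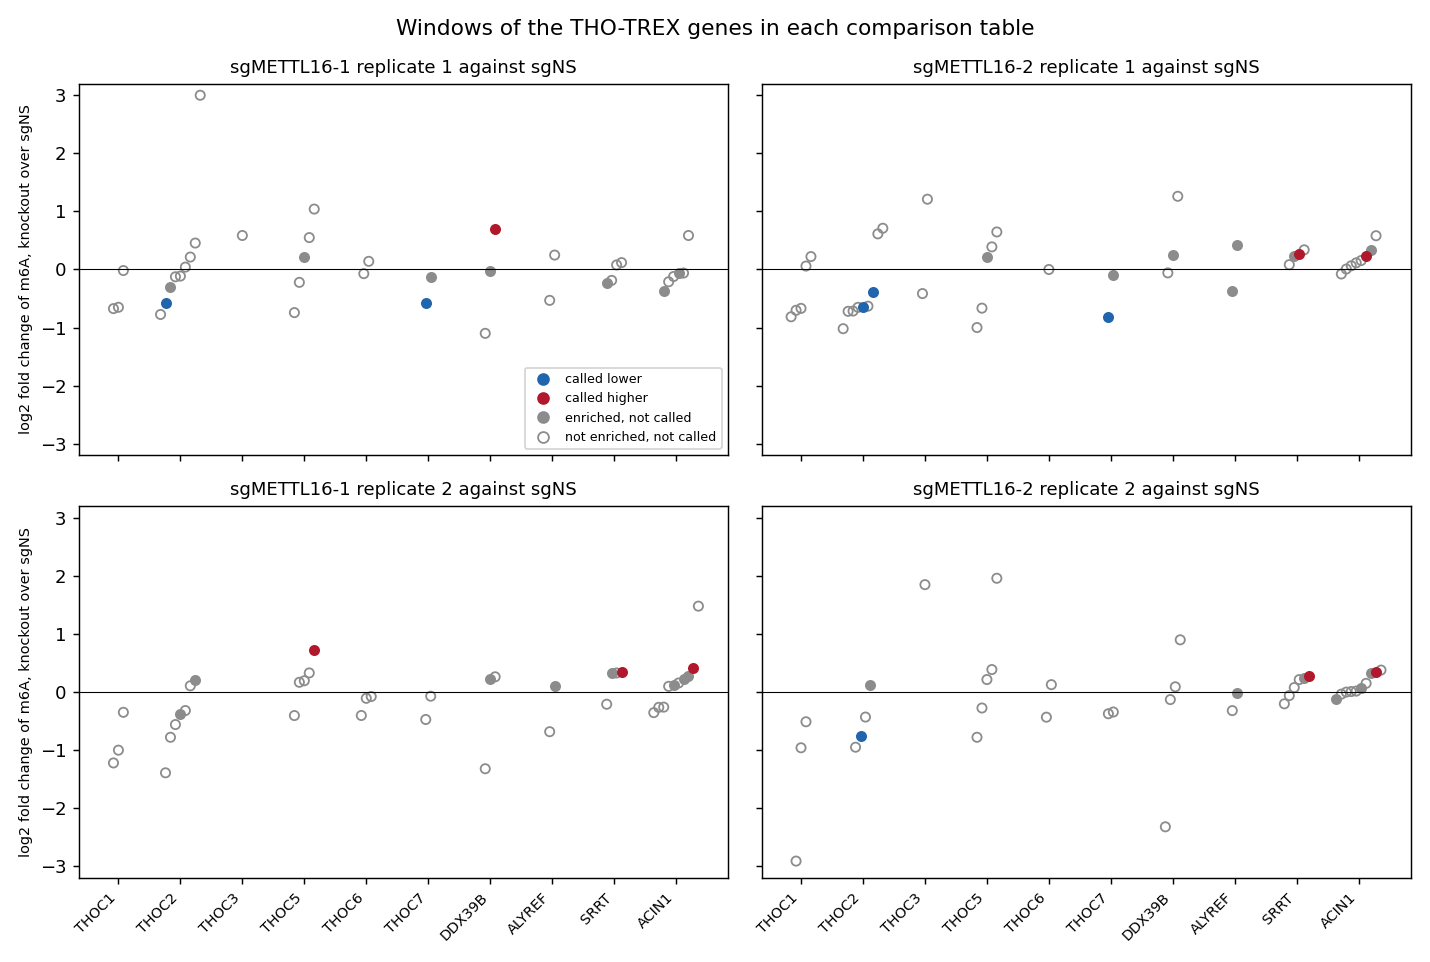
Log2 fold change of m6A (knockout over sgNS, vertical axis) of every window of the 10 genes, 1 panel per comparison table. Each point is a window, filled where IP was enriched over input, blue where called lower, red where called higher. THOC2 and THOC7 hold the lower calls, and the windows farthest from 0, up to 3, are open and uncalled.

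The windows of these genes joined several blocks more often than those of the tables as a whole. Between 46.2% and 64.9% of them spanned 2 or more blocks, against 27.7% to 29.8% over all windows. They were also enriched more often, at 27% (sgMETTL16-1 replicate 1), 28.2%, 29.3% and 23.1%, against 8.1%, 11.9%, 10.2% and 12.3% over all windows. Their enrichment was modest, with a median fold enrichment of 1.41 to 1.62 among their enriched windows against 1.78 to 1.92 over all enriched windows. All 14 called windows were enriched, at a fold enrichment of 1.24 to 1.80, and 13 of them had several blocks. Called windows held a median of 496 bases and uncalled ones 150. Among uncalled windows 16 had values of 1 or more from 0 on the log2 scale, and 0 of those were enriched.

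**Figure D2:**
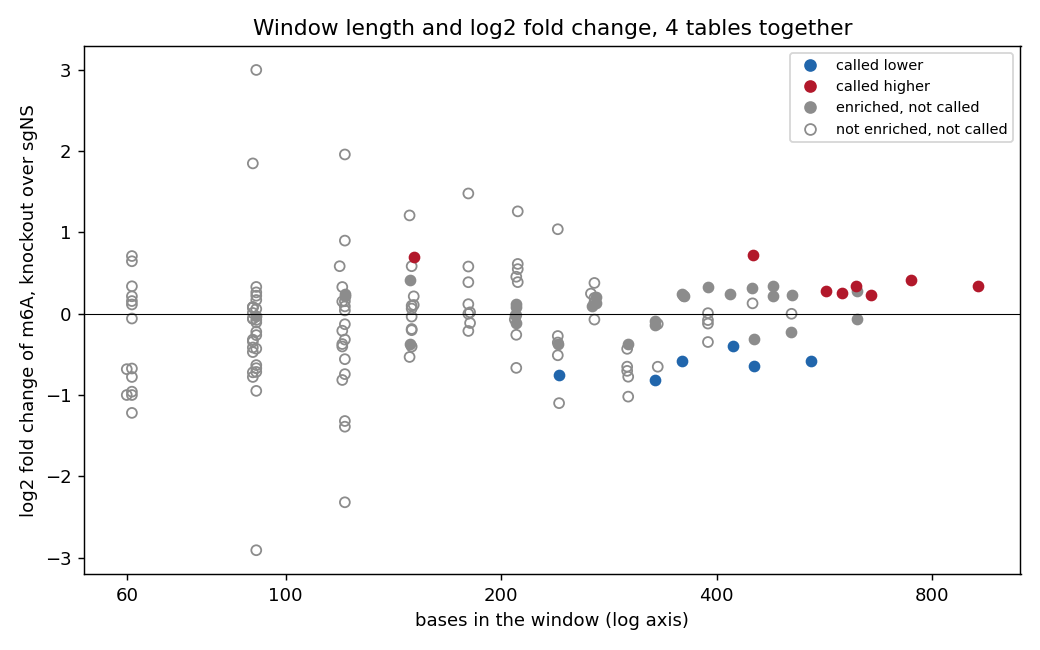
Window length in bases (horizontal, log axis) against log2 fold change of m6A (vertical) for the 156 windows of the 10 genes, with points filled where enriched and coloured where called. Calls sit in windows of 151 to 927 bases at values within 1 of 0, while values of 1 or more from 0 belong to windows of 60 to 301 bases without enrichment.

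THOC2, the large scaffold subunit of THO, carried the lower call that recurred most. The gene lies on the minus strand of chromosome X (123600569 to 123733052, GRCh38). The authors' deposited tables list 29 windows on it, 20 with a negative and 9 with a positive log2 fold change. The region of interest lies 20636 to 20696 bases of genomic sequence before its 3′ end, and 241 bases of it, from 123621265 to 123621505, are common to all 4 tables. With sgMETTL16-1 the authors' deposited tables gave -0.58 in replicate 1 (window 123621205 to 123623159, FDR = 7.94e-06) and -0.37 in replicate 2 (123621235 to 123621535, FDR = 0.129, not called). With sgMETTL16-2 they gave -0.64 in replicate 1 (123621235 to 123622855, FDR = 1.05e-05) and -0.75 in replicate 2 (123621265 to 123621505, FDR = 4.07e-06). All 4 values were negative and 3 were called. The mean was -0.48 for sgMETTL16-1, where the replicates differed by 0.21, and -0.70 for sgMETTL16-2, where they differed by 0.11. The windows held 541 and 301 bases for sgMETTL16-1 and 451 and 241 for sgMETTL16-2, so each mean joins stretches of unlike length. In size, both means were larger than the difference between their replicates. They were smaller than the 95th percentile of such differences over all windows enriched in both tables (0.79 and 0.76). The region was singled out by these same values, so neither comparison is a test of it. IP was enriched over input in all 4 tables, with fold enrichments of 1.4, 1.45, 1.4 and 1.24.

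Downstream of it, THOC2 had a second enriched region, whose windows differed in sign. In the authors' deposited replicate 1 tables the window there was at -0.31 for sgMETTL16-1 (123610950 to 123614183, FDR = 0.173) and at -0.39 for sgMETTL16-2 (123611456 to 123614183, FDR = 0.0178, called lower). In replicate 2 the most enriched window of the region, 123613548 to 123620924 in both authors' deposited tables, was at 0.21 for sgMETTL16-1 and 0.13 for sgMETTL16-2, and neither was called. A further window of that region in sgMETTL16-1 replicate 2, 123610920 to 123611516, was at -0.32 in the authors' deposited table (FDR = 0.658), without enrichment. Windows of the 2 replicate numbers cover partly different bases there, and no base is common to all of them. Further upstream, 123667157 to 123671691 was listed in the authors' deposited replicate 1 tables alone, at -0.78 and -1.02 (FDR = 0.22 and 0.0741), without enrichment or call. Tables of the same replicate number may have been made with the same sgNS libraries, which the sources used here do not state, so likeness between guides within a number is not independent support.

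THOC7, the small subunit that pairs with THOC5 at the core of THO, was called lower with both guides in replicate 1. It lies on the minus strand of chromosome 3 (63833870 to 63864484). In the authors' deposited replicate 1 tables its long window joined 6 blocks for sgMETTL16-1 (63835210 to 63863775, 358 bases) and 5 blocks for sgMETTL16-2 (63835340 to 63863775, 328 bases). The values in these authors' deposited tables were -0.58 (FDR = 0.0038) and -0.82 (FDR = 7.59e-05). The authors' deposited replicate 2 tables listed only 90 bases of it, 63838384 to 63838473, at -0.47 for sgMETTL16-1 and -0.34 for sgMETTL16-2. Those replicate 2 windows were neither enriched nor called (FDR = 0.658 and 0.65 in the authors' deposited tables). All 4 values were thus negative, and both calls came from replicate 1. The other THOC7 region, at the 3′ end, was near 0 in 3 tables (-0.13, -0.07 and -0.09) and at -0.37 in replicate 2 of sgMETTL16-2, uncalled throughout the authors' deposited tables. All 8 windows of THOC7 had a negative log2 fold change. The antisense gene THOC7-AS1 (63860645 to 63861819 in RefSeq) lies within the span of the long window, and the sources used here do not give whether reads were counted by strand.

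**Figure D3:**
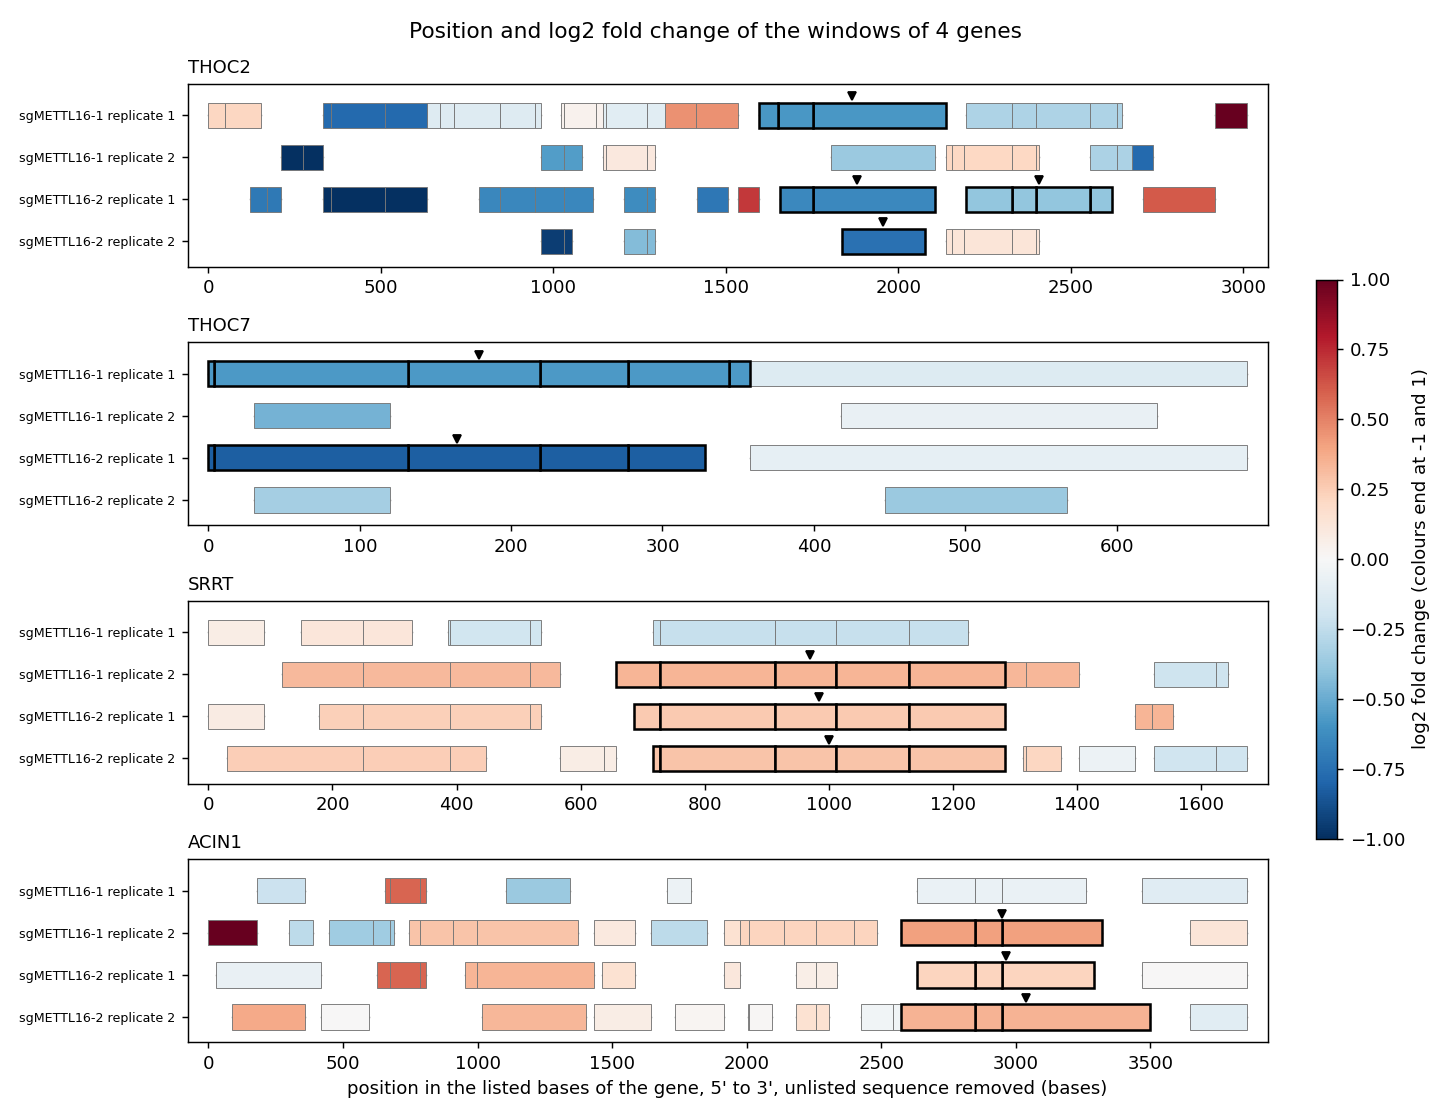
Windows of THOC2, THOC7, SRRT and ACIN1 in each table (rows), placed along the listed bases of the gene from 5′ to 3′ with unlisted sequence removed (horizontal axis, bases). Colour gives the log2 fold change of m6A, and called windows have a heavy outline and a triangle. The called THOC2 region is blue in all 4 rows, while the SRRT and ACIN1 regions are red in 3 rows and blue or pale in sgMETTL16-1 replicate 1.

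THOC1, the subunit first described as a partner of the retinoblastoma protein, had 12 of 14 windows below 0 but no call and no enriched window. It lies on the minus strand of chromosome 18 (214520 to 268047). Its 3′ region was matched in all 4 of the authors' deposited tables, at -0.65 and -0.35 for sgMETTL16-1 (FDR = 0.376 and 0.658) and -0.70 and -0.51 for sgMETTL16-2 (FDR = 0.168 and 0.542). The means were -0.50 and -0.61, with replicate differences of 0.30 and 0.19. The windows held 300 and 389 bases for sgMETTL16-1 and 300 and 240 for sgMETTL16-2. The genes were chosen with these values known, so the size of the means is no test. A short window of 91 bases at the very 3′ end stood at -2.91 in replicate 2 of sgMETTL16-2 (FDR = 0.65 in the authors' deposited table), which is the most negative value of the 10 genes.

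THOC5, a subunit that binds THOC7 and was first found as a partner of the macrophage colony-stimulating factor receptor, went the other way. It lies on the minus strand of chromosome 22 (29505879 to 29553757). Its most enriched region stood, in the authors' deposited tables, at 0.22 in replicate 1 and 0.73 in replicate 2 of sgMETTL16-1, and only the latter was called (29542885 to 29550740, FDR = 0.0257). With sgMETTL16-2 the authors' deposited tables gave 0.22 in both replicates (FDR = 0.659 and 0.65). All 4 values were positive, 3 of them alike at 0.22 and 1 far above. The call was lost when the deposited p was doubled to make it two-sided (FDR = 0.0712). The remaining THOC5 windows scattered between -1.0 and 1.96 in the authors' deposited tables and none was enriched or called.

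THOC3 and THOC6, both WD-repeat subunits, had little signal. THOC3 (chromosome 5, minus strand, 175959531 to 175968315) had 4 windows in 3 tables and none in replicate 2 of sgMETTL16-1, with fold enrichments of 2.28 to 4.13, none of them enriched by FDR. Its log2 fold changes ran from -0.42 to 1.85 in the authors' deposited tables, all with an FDR of 0.65 or more. THOC6 (chromosome 16, plus strand, 3024035 to 3027750) had 8 windows between -0.43 and 0.14 in the authors' deposited tables, also without enrichment. Its 5′ window lies over HCFC1R1 on the opposite strand, which was listed there with values of 0.39 and 0.26 against -0.40 and -0.43 for THOC6 in the authors' deposited tables.

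Counted together, the 6 THO subunits had 54 negative and 29 positive windows over the 4 tables, and a median log2 fold change of -0.09 and -0.33 with sgMETTL16-1 and -0.52 and -0.37 with sgMETTL16-2. The median over all windows was 0 in each table. Among their 15 enriched windows 10 were negative and 5 positive. Most of the negative ones lay in replicate 1, where either guide's table held 4 negative against 1 positive. Replicate 2 showed no such excess: sgMETTL16-1 had 1 negative against 2 positive, sgMETTL16-2 had 1 of each. The enriched median was 0.21 in sgMETTL16-1 replicate 2 but negative in the other tables (-0.31, -0.39, -0.31). All 4 enriched THOC7 windows were negative, all 3 of THOC5 were positive, and the other 8 belonged to THOC2. Within the tables, 46.1% to 48.5% of all windows were negative, and of enriched windows 56% in replicate 1 of sgMETTL16-1 and 32.5% to 36.6% in the others. THOC2 supplied 20 of the negative windows and THOC1 12, and windows of 1 gene are not independent of each other.

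DDX39B, the ATPase that brings ALYREF to RNA, had 1 call, and that in a region listed once. The gene lies on the minus strand of chromosome 6 (31530226 to 31542003). In replicate 1 of sgMETTL16-1 the authors' deposited table gave 0.70 for 31531063 to 31531311 (FDR = 3.39e-06, fold enrichment 1.29), called higher. The other 3 tables list no window at these bases, so this value has no replicate. The readthrough gene ATP6V1G2-DDX39B was listed over 99.3% of the same bases at 0.69 in the authors' deposited table, so the reads of the 2 genes cannot be told apart. DDX39A, a close paralogue, may share reads too. At the 3′ end of DDX39B, the window starting at 31530219 appeared in all 4 of the authors' deposited tables, at -0.03 and 0.22 for sgMETTL16-1 and 0.24 and 0.09 for sgMETTL16-2. It was enriched in 3 of them and called in 0.

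The 5′ windows of DDX39B began before the start of the gene in RefSeq. All 7 of them lay between 31542025 and 31542355, upstream of the annotated start at 31542003 and within the span of ATP6V1G2-DDX39B. They are shown because they include the highest fold enrichments of the 10 genes, up to 6.76, without passing the enrichment FDR in any table. Their log2 fold changes ran from -2.32 to 1.26 in the authors' deposited tables and none was called. The sequence is that of the 250 bases upstream of the DDX39B start from RefSeq (GRCh38.p14, chr6:31542004-31542253, minus strand, written 5′ to 3′), with the 229 bases that lie in a listed window in capitals.
DDX39B upstream: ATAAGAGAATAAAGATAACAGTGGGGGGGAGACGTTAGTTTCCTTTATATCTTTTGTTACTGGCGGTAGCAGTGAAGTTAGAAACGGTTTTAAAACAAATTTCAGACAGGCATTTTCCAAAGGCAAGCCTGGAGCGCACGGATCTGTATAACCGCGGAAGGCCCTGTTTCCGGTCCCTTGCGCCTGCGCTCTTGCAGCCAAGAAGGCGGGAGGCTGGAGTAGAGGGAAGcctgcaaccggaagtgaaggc
The letters GGAC, the core of the commonest m6A context, occur 0 times on the transcript strand of these bases and 1 time on the other strand. Of 35116 RefSeq start regions cut to the same length, 59% hold GGAC on the transcript strand and 59.5% on the other, the 2 counts being made strand by strand. ACAGAG, which is part of the known METTL16 site, occurs on neither strand here, against 8.95% and 8.79% of start regions. The bases under the called windows of THOC2, THOC7, SRRT and ACIN1 were not read here.

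ALYREF, the RNA-binding adaptor that DDX39B loads and NXF1 displaces, had no call. It lies on the minus strand of chromosome 17 (81887835 to 81891587) and had 2 regions, each listed in all 4 tables. In the upstream one, sgMETTL16-1 gave 0.25 and 0.10 and sgMETTL16-2 gave 0.41 and -0.02 in the authors' deposited tables, with enrichment in 3 of 4. Nearer the 3′ end the authors' deposited tables gave -0.53, -0.68, -0.37 and -0.32 in the same order, with enrichment in 1. The 3′ values were all negative, at means of -0.61 and -0.34 and replicate differences of 0.15 and 0.05, yet each had an FDR of 0.65 or more.

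SRRT and ACIN1, the cap-binding and ASAP factors, carried 6 of the 8 higher calls. SRRT lies on the plus strand of chromosome 7 (100875103 to 100888664). Its main region, in the middle of the gene, shared 508 bases over all 4 tables and joined 5 blocks in each. With sgMETTL16-1 the authors' deposited tables gave -0.23 in replicate 1 (100884228 to 100885309, FDR = 0.0661, not called) and 0.34 in replicate 2 (100884169 to 100885369, FDR = 1.45e-06). With sgMETTL16-2 they gave 0.26 (100884198 to 100885369, FDR = 0.00417) and 0.28 (100884228 to 100885369, FDR = 0.000363). The 2 sgMETTL16-2 values differed by 0.03 around a mean of 0.27. Those of sgMETTL16-1 differed by 0.57, more than their mean of 0.06. In each of the 3 tables with the higher calls, 1 more upstream SRRT window was enriched but uncalled, at 0.32, 0.24 and 0.24 in the authors' deposited tables.

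ACIN1 lies on the minus strand of chromosome 14 (23058564 to 23095614) and had 34 windows, the most of the 10 genes. Its main region, 359 to 598 bases before the 3′ end of the gene, had the lowest enrichment FDR of the 10 genes in each of the 4 tables (1e-24, 3.98e-67, 2.00e-54 and 1.58e-56). With sgMETTL16-1 the authors' deposited tables gave -0.06 in replicate 1 (23059162 to 23061511, FDR = 0.655, not called) and 0.41 in replicate 2 (23059102 to 23061571, FDR = 7.41e-10). With sgMETTL16-2 they gave 0.23 (23059132 to 23061511, FDR = 0.0245) and 0.35 (23058923 to 23061571, FDR = 3.63e-07). As for SRRT, the value of sgMETTL16-1 replicate 1 was the only negative one and the other 3 were called higher. The sgMETTL16-2 values differed by 0.12 around a mean of 0.29, and those of sgMETTL16-1 by 0.48 around a mean of 0.18. The last ACIN1 window, next to it at the 3′ end, had 0 calls and stood at -0.12 and 0.13 for sgMETTL16-1 and 0.01 and -0.11 for sgMETTL16-2 in the authors' deposited tables. At the 5′ end, windows of ACIN1 share bases with C14orf119 on the opposite strand.

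In the tables where SRRT and ACIN1 were called higher, enriched windows as a whole stood above 0, and the part of this in the calls was not tested. The median log2 fold change over all enriched windows was -0.04 in sgMETTL16-1 replicate 1, and 0.13, 0.13 and 0.14 in the other 3 tables. That median was then subtracted. A two-sided FDR was recomputed under a normal distribution, with an error worked back from the deposited p, taken as one-sided. SRRT then stood at 0.21 in sgMETTL16-1 replicate 2 (FDR = 0.0926) and at 0.13 and 0.15 with sgMETTL16-2 (FDR = 0.812 and 0.808), and its 3 calls were lost. ACIN1 kept its call in sgMETTL16-1 replicate 2 and lost both with sgMETTL16-2, where it stood at 0.10 and 0.21 (FDR = 1 and 0.0622). THOC5 lost its call as well, at 0.59 (FDR = 0.453), while DDX39B kept its call, at 0.73 (FDR = 1.74e-06). Two-sided p-values without the shift already lost the calls of THOC5 (FDR = 0.0712) and of ACIN1 in sgMETTL16-2 replicate 1 (FDR = 0.0672). All 4 lower calls of THOC2 and both of THOC7 remained, and the upstream THOC2 window of sgMETTL16-1 replicate 2 passed, at -0.51 (FDR = 0.0337). In the 3 tables with a median above 0 the subtraction moves every value down. Negative values there move away from 0 by construction, so the lower calls kept or gained in those tables carry no added weight. In sgMETTL16-1 replicate 1 the subtraction moves values up, which favours the DDX39B call.

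**Figure D4:**
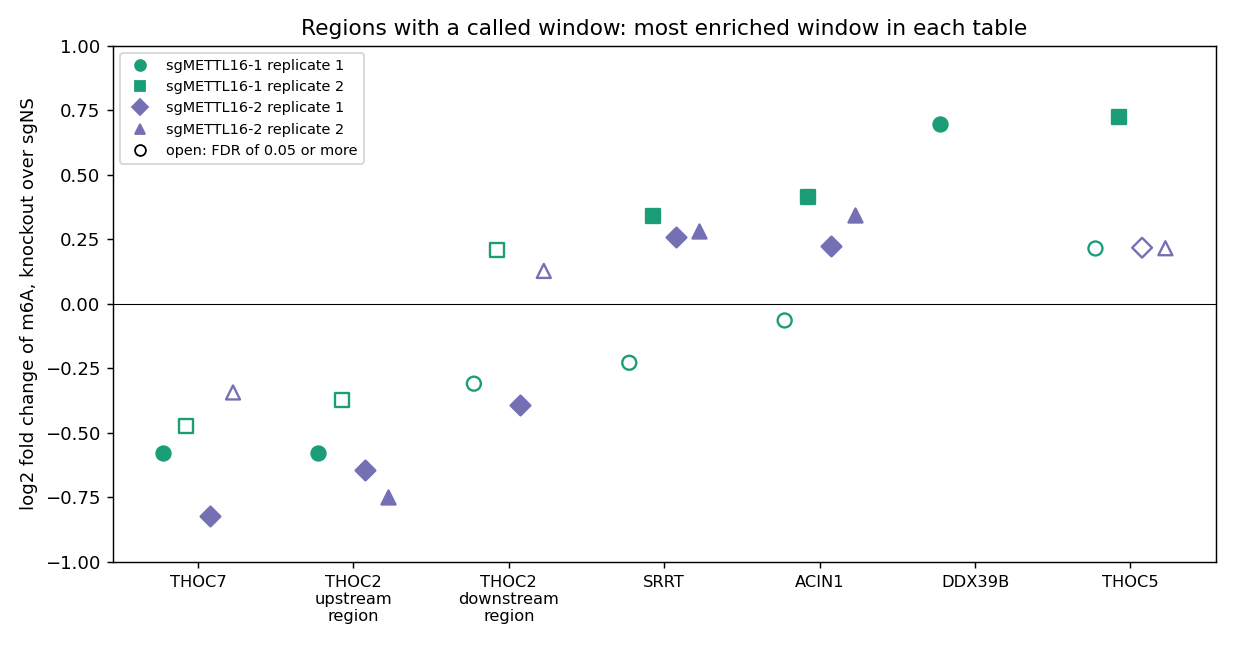
Log2 fold change of m6A (vertical axis) of the most enriched window in each table, for the 7 regions with a call. Colour is the guide, shape the table, and open symbols have an FDR of 0.05 or more. All 4 THOC7 and upstream THOC2 values lie below 0, SRRT and ACIN1 lie above 0 in 3 tables, and DDX39B has a single value of 0.70.

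A call was next asked for in both tables of a guide, with windows matched by a reciprocal overlap of at least 0.5. For sgMETTL16-2, 3 of 20 matched windows of these genes met this: THOC2 lower, and SRRT and ACIN1 higher. Of all 21192 windows so matched, the shares with such a repeated call were 0.0613% lower and 0.529% higher. For sgMETTL16-1 it was 0 of 12, against 0.0449% lower and 0.02% higher of 20031. At an unadjusted p under 0.05 in both tables, 1 of the 12 was lower (THOC2) and 0 were higher, against 0.31% and 0.729% of all matched windows. For sgMETTL16-2 the same threshold gave 2 lower and 4 higher of the 20, in ACIN1, SRRT, THOC1 and THOC2, against 0.566% and 3.36%. No window was called in opposite directions in the tables of a guide. Whether called or not, 5 of the 12 matched windows had the same sign in both sgMETTL16-1 tables. For sgMETTL16-2 it was 14 of the 20.

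Some genes elsewhere in the transcriptome had nearly the same 4 log2 fold changes as ACIN1 or SRRT. By Euclidean distance over the 4 tables, the windows closest to the main ACIN1 window, of 6877, included those of DAZAP1 and CNPY3 (each 0.06) and of BASP1 and SNTB1 (each 0.07). The SRRT window was closest, of 6878, to PABPN1 (0.08), FAM175A and EZR (each 0.11) and SURF6 and GTF2F1 (each 0.12). DAZAP1, for example, stood at -0.08, 0.39, 0.26 and 0.31 in the authors' deposited tables, and PABPN1 at -0.29, 0.32, 0.23 and 0.26.

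The rest of the export pathway was listed as 37 genes in 4 groups, of which 34 to 36 had windows. The calls were 1 lower and 0 higher of 200 windows (sgMETTL16-1 replicate 1) and 2 lower and 2 higher of 172 (replicate 2). With sgMETTL16-2 they were 6 lower and 1 higher of 175 in replicate 1, and 1 lower and 1 higher of 164 in replicate 2. Over all windows, in that order, 0.281%, 0.167%, 0.965% and 0.149% were called lower and 0.0743%, 0.583%, 0.875% and 0.586% higher. These lists too were chosen with earlier results known, so nothing is read from the gap. Among cap-binding proteins and their partners, ZC3H18, which joins the cap-binding complex through SRRT, was called higher in both sgMETTL16-2 tables at 0.60 (FDR = 0.0123) and 0.30 (FDR = 0.0219), and in sgMETTL16-1 replicate 2 at 0.44 (FDR = 0.000513), in the authors' deposited tables. The ZC3H18 windows differed in extent and were not matched between tables. In these tables enriched windows as a whole stood above 0, and the part of this in the ZC3H18 calls was not tested.

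Among the export receptors, TREX-2 and pore factors, NUP153, a nucleoporin of the nuclear basket, was called lower in both replicate 2 tables, at -1.64 for sgMETTL16-1 (FDR = 0.000316) and -1.82 for sgMETTL16-2 (FDR = 5.25e-06), and stood at -1.26 without a call or enrichment in sgMETTL16-2 replicate 1 (FDR = 0.143), in the authors' deposited tables. TPR, the other basket filament protein, was called lower in sgMETTL16-2 replicate 1 in 2 windows, at -1.16 and -1.48 (FDR = 0.00282 and 0.0339), and the centrin CETN3 at -1.31 (FDR = 0.0245), all without enrichment, in the authors' deposited table. The median of this group was -0.34 in that table and between -0.01 and 0 in the others, where all windows had a median of 0. In the exon junction group MAGOH, a core subunit, was called lower in both replicate 1 tables, at -0.55 and -1.20 (FDR = 0.0107 and 5.01e-08 in the authors' deposited tables). PNN, a partner of the ACIN1-binding protein SAP18, was called higher once, at 0.33 in sgMETTL16-1 replicate 2 (FDR = 0.00631 in the authors' deposited table). Another enriched PNN window there stood at 0.24 (FDR = 0.142). In replicate 1 of the same guide, enriched PNN windows stood at -0.17 and -0.29 (FDR = 0.170 and 0.179), uncalled. Among the other TREX adaptors, DDX39A was called lower in sgMETTL16-1 replicate 2 at -0.60 (FDR = 0.0204) in the authors' deposited table. An enriched DDX39A window overlapping that span stood at 0.33 in sgMETTL16-1 replicate 1 (FDR = 0.0513, not called). Elsewhere on DDX39A an enriched window stood at 0.33 in sgMETTL16-2 replicate 2 (FDR = 0.103, not called). FYTTD1 was called lower in sgMETTL16-2 replicate 1 at -1.13 (FDR = 0.0186), without enrichment, in the authors' deposited table.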

How the data were processed

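RNA from 12 NOMO-1 libraries, an input and an m6A IP library for each of 3 guides and 2 replicate numbers, was sequenced, and the submitters' processing notes name STAR and the build GRCh38. Which caller made the windows, its strand setting and its annotation is not given in the sources used here. In all, the authors deposited 4 tables, each 1 knockout guide and replicate number against sgNS, as the sample descriptions tie them. Per the file headers, the deposited values are a fold enrichment ratio of IP over input, a log2 fold change of the difference, and p-values and FDR as log10. The authors deposited no value per library in them, so depth is unknown, no interval is given and no test was fitted to library values here. The FDR for two-sided p-values and after the shift was recomputed from the deposited p-values.

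The 10 genes and the other gene lists were chosen with earlier results of these data known. Windows given with coordinates are, for each gene, the one of lowest enrichment FDR in each table, every called one and those matched in all 4 tables, plus a few singled out after their values were seen (the THOC2 window at 123667157, the THOC1 window of 91 bases, and the DDX39B 5′ windows). Genes of the other lists were named when both tables of 1 guide called them the same way, plus up to 3 per list by lowest FDR. A few items that these rules or the marker lists name are not reported here. Python 3.11.15, pandas 2.3.3, numpy 2.4.6 and scipy 1.17.1 were used, and the steps were tested on simulated data. Calls used a deposited FDR under 0.05, and windows were matched on gene, strand and a reciprocal overlap of at least 0.5 over blocks. Coordinates are 1-based, and gene ends and start regions come from RefSeq (GRCh38.p14). Alternatives were a stricter FDR, minimum fold change or enrichment, two-sided p-values, a shift by the median of enriched windows, 1 window per gene, other overlaps, and each replicate alone.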

Additional observations from a re-analysis of the deposited data

How the results depend on the processing

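No paired analysis was possible because the tables hold no value per library. The counts of called windows, 3, 3, 5 and 3 (sgMETTL16-1 replicates 1 and 2, then sgMETTL16-2), fell to 0 in all 4 tables when a log2 fold change of 1 or more in size or a fold enrichment of at least 2 was required. Taking 1 window per gene left 0 calls in sgMETTL16-1 replicate 1 and in sgMETTL16-2 replicate 1, and 1 in sgMETTL16-2 replicate 2. An FDR under 0.01 left 3 in sgMETTL16-2 replicate 1. Subtracting the median of enriched windows left 3 in sgMETTL16-2 replicate 1 and 1 in replicate 2. For calls shared by both tables of a guide, that shift gave 1 for sgMETTL16-1 instead of 0, and 1 for sgMETTL16-2 instead of 3 (THOC2 in each). In 3 of the 4 tables the shift moves values down, so lower calls gain from it by construction. An overlap of at least 0.8 left 1 for sgMETTL16-2 (SRRT), and a fold enrichment of at least 2 left 0. Without replicate 1 or replicate 2 in turn, the calls of the remaining table were 3 to 3 for sgMETTL16-1 and 3 to 5 for sgMETTL16-2. The sgMETTL16-1 calls came from different genes: THOC2 and THOC7 lower and DDX39B higher in replicate 1, and ACIN1, SRRT and THOC5 higher in replicate 2. Enriched windows of sgMETTL16-1 replicate 1 went from 10 to 6 at an enrichment FDR under 0.01 and to 6 at a fold enrichment of at least 2 whatever the FDR. Those of sgMETTL16-1 replicate 2 went from 11 to 7 at that fold enrichment, and those of sgMETTL16-2 replicate 2 from 9 to 5 at an enrichment FDR under 0.01. The cause of these changes was not tested. Of the named windows, 14 were called at the start. Under the shift 6 of those 14 lost the call and 1 uncalled window gained it. The other 41 kept their side of the threshold, most of them uncalled throughout. With two-sided p-values 46 kept their side and 2 of the 14 lost the call (THOC5, and ACIN1 in sgMETTL16-2 replicate 1, FDR = 0.0672). None changed sign among called windows. Leaving out windows that share bases with another gene, an alternative chosen after seeing the data, removed the DDX39B call and left 2 in sgMETTL16-1 replicate 1. The tables give no depth, so whether an uncalled window lacked reads cannot be told.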
